A study of Rattus norvegicus with 18 samples.

Results

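Gene expression was compared between dorsal root ganglia of sham rats given the herbal preparation Shentong Zhuyu decoction and of sham rats given its solvent, 3 libraries against 3 out of 18 in the series. The members are all libraries whose titles read Sham_herb and Sham_solvent, each carrying the disease state Sham, with the treatment herb or solvent. The pain model, called NPP in the labels, contributes 3 NPP_herb and 3 NPP_solvent libraries, which serve here to ask whether the herb acted alike with and without the model. Another 3 Ctrl_solvent and 3 Ctrl libraries entered neither comparison. They did enter the filter on low counts, the scaling of libraries and the shared estimate of the spread. They also entered the gene means used for length slopes and list levels. Of the Ctrl libraries, replicates 2 and 3 had 1 and 0 reads of the Y-linked gene Eif2s3y, against 3006 in replicate 1, so that group holds libraries with and without reads of Y-linked genes. All libraries of the other groups had at least 2180 such reads. In a fit of only the libraries compared, edgeR called 0 genes and 1447 had an unadjusted p under 0.05. The sources used here do not give the sham procedure, the strain, sex and age of the rats, the dose, the length of treatment or what the solvent was. No source states that the 3 libraries of each group stem from different animals; p-values therefore reflect the spread among these samples alone, and that spread may be technical.

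Dorsal root ganglia hold the cell bodies of sensory neurons that report touch, position, temperature and pain, wrapped by satellite glia and served by Schwann cells, vessels, fibroblasts and resident macrophages. The ganglia lie where the coverings of the spinal cord, the meninges, pass into the sheath of the nerve. A pair of stress programs is described in detail: the genes switched on by glucocorticoid hormones through their receptor, and the chaperones that hold or refold proteins in the cytosol and the endoplasmic reticulum.

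All 6 Sham libraries carried the markers of the tissue. The neuronal tubulin Tubb3 had 1420 to 1840 FPKM (reads scaled to gene length and library size), the nociceptor sodium channel Scn10a 18.7 to 29.3 FPKM, and the satellite glia gene Fabp7 49.0 to 117 FPKM. The oligodendrocyte gene Mog was at 0.01 to 0.11 FPKM and the fat cell gene Adipoq at 0 to 0.11 FPKM. Depth was 34671490, 25813282 and 30609481 counted reads in Sham_herb replicates 1 to 3, against 26027334, 50289652 and 29798750 in Sham_solvent replicates 1 to 3. The Sham_solvent libraries were less alike than the Sham_herb libraries: log2 CPM (counts scaled to library size) correlated across genes at r = 0.990 to 0.992 within Sham_herb and at 0.975 to 0.987 within Sham_solvent. Sham_solvent replicate 2 correlated with each Sham_herb library at 0.989 to 0.991, above its r with either library of its own group. The other two, Sham_solvent replicates 1 and 3, held relatively more reads of short genes, as described with the short genes further on.

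No gene passed the test in the Sham comparison. EdgeR called 0 of 17043 genes (0%) at an adjusted p under 0.05, and the smallest adjusted p was 0.491. DESeq2 and limma on both FPKM scales called 0 as well. An unadjusted p under 0.05 was found for 1686 genes (9.89%) with edgeR and 1919 with DESeq2. Of the 1686 genes, 750 were higher (4.4% of all tested) and 936 lower (5.49%) in Sham_herb. In 2485 genes (14.6%) the groups did not overlap, with all Sham_herb libraries above all Sham_solvent libraries in 1452 (8.52%) and below them in 1033 (6.06%). These counts depend on single libraries. Without Sham_solvent replicate 2, edgeR called 485 genes, 106 higher and 379 lower, and 4146 genes had an unadjusted p under 0.05. That last count was 505 without Sham_solvent replicate 1, 1008 without Sham_solvent replicate 3, 871 without Sham_herb replicate 2 and 1070 without Sham_herb replicate 3. Gene values below are CPM by library in the order of replicates 1 to 3, and changes are log2 fold changes, Sham_herb minus Sham_solvent, ± SE from edgeR. Since no gene passed, "higher" and "lower" describe these libraries.

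Among named genes higher in Sham_herb, the smallest p-values belonged to 10 genes with modest and even differences, between 0.35 and 0.72 on the log2 scale (adjusted p = 0.491 for each, edgeR). Prelid2, of a family of proteins that move lipids between mitochondrial membranes (chromosome 18), had 58.6, 63.1 and 58.2 CPM in Sham_herb against 46.6, 48.5 and 43.7 CPM in Sham_solvent (0.37 ± 0.09). Fam149a (chromosome 16) had 19.5, 21.1 and 19.5 CPM in Sham_herb against 11.9, 12.8 and 12.2 CPM in Sham_solvent (0.70 ± 0.17). In both genes each group was tight and the groups were well apart. The calcium-activated potassium channel gene Kcnn1, whose small-conductance channel shapes the pause after a spike (chromosome 16), had 9.57, 12.8 and 10.8 CPM in Sham_herb against 6.54, 6.52 and 7.06 CPM in Sham_solvent (0.72 ± 0.18). Runx1, a transcription factor that in mice steers nociceptors to their subtypes (chromosome 11), had 34.9, 38.1 and 37.3 CPM in Sham_herb against 26.7, 28.1 and 27.4 CPM in Sham_solvent (0.43 ± 0.11). The zinc and manganese importer Slc39a8 had 35, 28.5 and 29.7 CPM in Sham_herb against 23.4, 21.7 and 23.0 CPM in Sham_solvent (0.46 ± 0.11). Sham_solvent stayed within a narrow band in all of these, and no single library of it set the difference. The genes were picked by small p and groups without overlap, so tight and separate groups follow from that choice.

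The remaining 5 were more uneven on the solvent side. The LIM-domain cofactor Ldb2 had 120, 129 and 125 CPM in Sham_herb against 88.8, 103 and 96.3 CPM in Sham_solvent (0.38 ± 0.09). The kinase Dyrk1a had 68.5, 64.0 and 66.2 CPM in Sham_herb against 46.3, 58.7 and 50.2 CPM in Sham_solvent (0.35 ± 0.09). Gab2, an adaptor that links growth factor receptors to their downstream kinases, had 36.6, 37.0 and 34.5 CPM in Sham_herb against 21.1, 31.2 and 26.9 CPM in Sham_solvent (0.45 ± 0.12). In these 3 genes Sham_solvent replicate 2 was the highest of its group and the nearest to Sham_herb. The ubiquitin ligase Rnf144a (0.52 ± 0.13) and the mitochondrial ATPase Vwa8 (0.41 ± 0.11) had the same arrangement.

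The 10 genes of smallest p that were lower in Sham_herb differed by more, from -0.51 to -2.60 on the log2 scale (adjusted p = 0.491 for each, edgeR). Fibulin 1, an extracellular matrix glycoprotein encoded by Fbln1 (chromosome 7), had 7.40, 9.49 and 9.12 CPM in Sham_herb against 15.4, 14.8 and 15.6 CPM in Sham_solvent (-0.82 ± 0.20). The kinase gene Map3k6, a glucocorticoid-induced gene, had 2.25, 2.31 and 2.65 CPM in Sham_herb against 4.35, 5.07 and 3.98 CPM in Sham_solvent (-0.89 ± 0.23). These 2 genes separated the groups without leaning on 1 library, which the rule that picked them favours. The co-chaperone Dnajb1, which hands unfolded proteins to Hsp70, had 57.1, 56.9 and 61.7 CPM in Sham_herb against 71.4, 74.1 and 105 CPM in Sham_solvent (-0.51 ± 0.13). The organic anion transporter gene Slc22a8 (chromosome 1) had 0.376, 0.266 and 0.294 CPM in Sham_herb against 3.90, 0.982 and 0.946 CPM in Sham_solvent (-2.60 ± 0.69). Its size rests in part on Sham_solvent replicate 1, which was the highest library. All other Sham libraries were under 1 CPM for Slc22a8, where few reads were counted.

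Bmp7, a secreted growth factor of the bone morphogenetic family, had 1.01, 1.29 and 0.752 CPM in Sham_herb against 4.39, 2.26 and 2.09 CPM in Sham_solvent (-1.51 ± 0.39). Cartpt, which encodes the CART neuropeptides, had 3.44, 4.25 and 2.39 CPM in Sham_herb against 14.0, 5.34 and 5.61 CPM in Sham_solvent (-1.30 ± 0.34). Igfbp2, which binds insulin-like growth factors, had 28.9, 29.9 and 29.2 CPM in Sham_herb against 66.9, 33.9 and 66.8 CPM in Sham_solvent (-0.93 ± 0.24). The Sham_herb libraries were almost level for Igfbp2, while Sham_solvent replicate 2 was far below the other two. The complex I assembly factor Ndufaf2 (-0.75 ± 0.19), the short SCAN-domain gene Scand1 (-1.65 ± 0.39) and the endoplasmic reticulum protein Creld2 (-0.63 ± 0.16) completed the set. Without Sham_solvent replicate 1, Slc22a8 was at -1.61, Cartpt at -0.71 and Scand1 at -1.02.

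**Figure D1:**
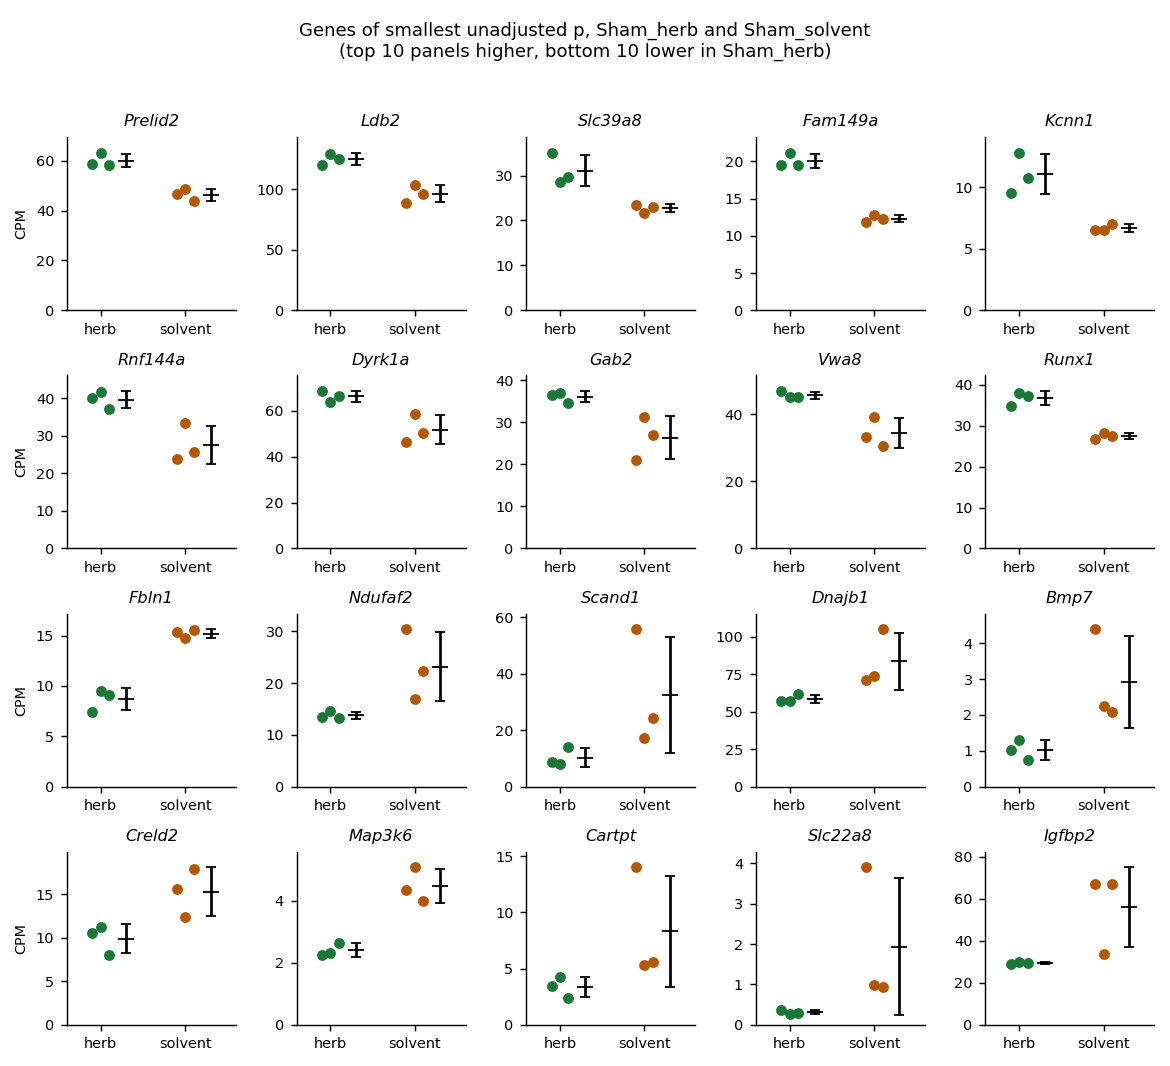
CPM of the 20 named genes of smallest unadjusted p by library, 1 panel a gene, each axis starting at 0. Points are replicates 1 to 3 from left to right for Sham_herb (green) and Sham_solvent (orange), and the bar beside them is the mean ± SD (n = 3). Sham_herb points cluster tightly, as in Igfbp2 at 28.9 to 29.9 CPM, whereas Sham_solvent often splits, as in Scand1 at 17.3 to 55.8 CPM.

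Genes that glucocorticoid hormones induce were lower in Sham_herb in 24 of the 27 members tested (88.9%, against 49.3% of all genes), with a median log2 fold change of -0.52 against 0.01 over all genes. Their unadjusted p was under 0.05 in 7 lower members (25.9%, where 5.49% of all genes were lower with such a p) and in 0 higher ones. In 9 members (33.3%) the groups did not overlap and Sham_herb lay below, against 6.06% of all genes. No member passed the adjusted test. The list's level is the average of its members' log2 CPM, each less the gene's mean over all libraries. It ran from -0.41 to -0.04 in Sham_herb and from -0.03 to 0.35 in Sham_solvent. Ctrl alone ran from -0.38 to 0.35, nearly the whole of both Sham ranges, and NPP_solvent from -0.23 to 0.33. NPP_herb (-0.1 to 0.01) and Ctrl_solvent (-0.13 to 0.09) spread less. Whether the Sham difference exceeds this spread between libraries was not tested. Tsc22d3, the glucocorticoid-induced leucine zipper that damps inflammatory signalling, had 216, 235 and 211 CPM in Sham_herb against 338, 313 and 283 CPM in Sham_solvent (-0.50 ± 0.15). Cebpb, a transcription factor of acute responses, had 3.87, 2.85 and 2.65 CPM in Sham_herb against 9.63, 5.01 and 6.75 CPM in Sham_solvent (-1.18 ± 0.33). Errfi1, a feedback inhibitor of the EGF receptor, had 16.7, 22 and 20 CPM in Sham_herb against 28.7, 31.6 and 23.6 CPM in Sham_solvent (-0.52 ± 0.18). All Sham_herb libraries lay below all Sham_solvent libraries in these 3 genes.

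Other receptor targets varied more. Fkbp5, a chaperone that feeds back on the glucocorticoid receptor, had 32.5, 39.0 and 35 CPM in Sham_herb against 43.9, 48.3 and 41.5 CPM in Sham_solvent, a separation of the groups at an unadjusted p of 0.0759 with edgeR. Sgk1, a kinase of ion transport, had 29.4, 29.0 and 28.1 CPM in Sham_herb against 51.1, 49.6 and 25.8 CPM in Sham_solvent, and the clock gene Per1 10.8, 21.4 and 17.6 CPM in Sham_herb against 27.3, 28.2 and 15.3 CPM in Sham_solvent. For both, Sham_solvent replicate 3 fell in or below the Sham_herb range. The gene of the receptor itself, Nr3c1, had 35.4, 40.1 and 37.1 CPM in Sham_herb against 24.9, 35.5 and 37.1 CPM in Sham_solvent (0.21, unadjusted p = 0.207, edgeR; 0.05 without Sham_solvent replicate 1). With each library's gene length trend as a covariate the list had 26 of 27 members lower and a median of -0.34. Leaving out 1 library gave medians from -0.39 to -0.63, and without Sham_solvent replicate 1 the members lower with an unadjusted p under 0.05 numbered 4.

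The heat shock list holds chaperones of the cytosol, the mitochondria (Hspd1, Hspe1) and the endoplasmic reticulum (Hspa5) and the heat shock factors Hsf1 and Hsf2. It was lower in 18 of 25 members, with a median of only -0.11, and 5 members (20%, against 5.49% of all genes) were lower with an unadjusted p under 0.05, namely Dnajb1, Hspa1b, Hspa5, Hspb1 and Hspe1. The inducible Hsp70 gene Hspa1b had 12.4, 14.9 and 15.9 CPM in Sham_herb against 19.9, 23.5 and 72.7 CPM in Sham_solvent (-1.43 ± 0.44). Hspe1, the mitochondrial chaperonin partner, had 129, 121 and 126 CPM in Sham_herb against 217, 131 and 199 CPM in Sham_solvent, and the small heat shock gene Hspb1 245, 181 and 292 CPM in Sham_herb against 397, 284 and 404 CPM in Sham_solvent. Sham_solvent replicate 3 carried the highest chaperone levels in Hspa1b and Dnajb1. Without it Hspa1b was at -0.59 and Dnajb1 at -0.31, and the list's median was -0.03 with 14 of 25 members lower and 2 lower with an unadjusted p under 0.05, while without Sham_solvent replicate 1 the median was -0.18 with 23 of 25 lower. Reads of Hspa1b may be shared with its near-identical copy Hspa1a, which was not analysed here.

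In the unfolded protein response, by which a loaded endoplasmic reticulum raises its own chaperones, 17 of 27 members were lower with a median of -0.10. An unadjusted p under 0.05 was found in 7 lower members and 1 higher one, where 5.49% of all genes were lower and 4.4% higher with such a p. Creld2, secreted during reticulum stress, had 10.5, 11.2 and 7.98 CPM in Sham_herb against 15.6, 12.4 and 17.9 CPM in Sham_solvent (-0.63 ± 0.16). The stress-induced factor Manf had 68.5, 65.3 and 66.8 CPM in Sham_herb against 96.5, 65.1 and 115 CPM in Sham_solvent, and the transcription factor Ddit3 32.8, 30.4 and 32.7 CPM in Sham_herb against 51.1, 32.7 and 50.3 CPM in Sham_solvent. Sham_solvent replicate 2 was within or at the edge of the Sham_herb range in both. Hspa5, the main Hsp70 of the reticulum, had 430, 429 and 417 CPM in Sham_herb against 442, 449 and 684 CPM in Sham_solvent, so its difference lay in Sham_solvent replicate 3. The sensor kinase gene Eif2ak3 went the other way, with 30.5, 35.8 and 33.0 CPM in Sham_herb against 21.3, 29.4 and 26.7 CPM in Sham_solvent (0.36 ± 0.13). Without Sham_solvent replicate 3 the list's median was -0.02, Hspa5 was at -0.07 and 1 member was lower with an unadjusted p under 0.05. That number was 4 when any of the 3 Sham_herb libraries was left out. With the gene length covariate it was 1.

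The promoters of 3 of these genes are shown because they hold the sequence element through which their stress program is known to act. Each is the 250 bases before the gene's start on the plus strand, from RefSeq on build GRCr8, while the count table rests on mRatBN7.2. Capitals mark the ER stress element (CCAAT and CCACG with 9 bases between them, on either strand) in Creld2 (chr7:121789134-121789383) and Hspa5 (chr3:38452766-38453015), and the heat shock element (GAA, TTC and GAA with 2 bases between each, on either strand) in Hspe1 (chr9:64084077-64084326).
Creld2: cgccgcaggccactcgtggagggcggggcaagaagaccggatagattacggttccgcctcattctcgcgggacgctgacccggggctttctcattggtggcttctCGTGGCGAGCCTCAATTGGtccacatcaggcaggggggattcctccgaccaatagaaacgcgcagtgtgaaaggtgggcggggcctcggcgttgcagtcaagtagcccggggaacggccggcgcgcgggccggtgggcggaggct
Hspa5: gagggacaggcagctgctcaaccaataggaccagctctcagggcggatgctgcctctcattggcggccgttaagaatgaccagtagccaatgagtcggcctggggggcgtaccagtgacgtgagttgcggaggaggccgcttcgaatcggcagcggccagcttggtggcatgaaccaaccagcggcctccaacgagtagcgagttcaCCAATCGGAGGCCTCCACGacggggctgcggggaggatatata
Hspe1: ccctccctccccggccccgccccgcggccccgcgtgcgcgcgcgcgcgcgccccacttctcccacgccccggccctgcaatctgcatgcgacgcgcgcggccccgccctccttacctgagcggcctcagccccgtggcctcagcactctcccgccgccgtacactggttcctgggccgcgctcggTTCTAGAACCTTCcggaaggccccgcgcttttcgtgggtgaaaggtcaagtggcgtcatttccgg
The ER stress element was present in this window in 7 of the 22 members of the unfolded protein response list with a promoter, namely Calr, Canx, Creld2, Dnajc3, Hsp90b1, Hspa5 and Xbp1, against 0.0657% of the 33469 promoters searched. The heat shock element was present in 4 of the 20 heat shock members with a promoter (Hspa8, Hspd1, Hspe1 and Hsph1), against 0.663% of all promoters. A match is a description of the letters and shows no use of the site in these animals. Among carriers of the ER stress element, Creld2 and Hspa5 had log2 fold changes of -0.63 and -0.30. Dnajc3 lay at -0.188, Calr at -0.118, Hsp90b1 at -0.105, Xbp1 at -0.084 and Canx at 0.13. Among carriers of the heat shock element, Hspe1 lay at -0.54, Hsph1 at -0.087, Hspd1 at -0.063 and Hspa8 at -0.039. Only the 3 genes shown had an unadjusted p under 0.05 with edgeR among these carriers. Hspa1b, Dnajb1 and Hspb1, lower with such a p, were not among the matches.

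Genes of meningeal barrier cells showed one of the lowest medians of the lists, with 23 of 25 members lower in Sham_herb and a median of -0.77. In 9 members (36%, against 5.49% of all genes) the unadjusted p was under 0.05 and the value lower, and in 9 the groups did not overlap and Sham_herb lay below, against 6.06% of all genes. Beside Slc22a8 and Bmp7, given above, the gap junction gene Gjb2 had 2.17, 3.04 and 1.96 CPM in Sham_herb against 5, 3.10 and 4.39 CPM in Sham_solvent (-0.80 ± 0.27). Aldh1a1, a retinoic acid-making enzyme, had 20.1, 13.4 and 18.6 CPM in Sham_herb against 33.4, 22.7 and 36.1 CPM in Sham_solvent (-0.82 ± 0.31). Both genes had all Sham_herb libraries below all Sham_solvent libraries.

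Another 4 members, chosen after their values were seen, are further barrier genes. The second organic anion transporter Slc22a6 had 0.173, 0.379 and 0.196 CPM in Sham_herb against 2.52, 0.432 and 0.405 CPM in Sham_solvent, and the prostaglandin D synthase gene Ptgds 104, 148 and 173 CPM in Sham_herb against 940, 237 and 265 CPM in Sham_solvent. The tight junction gene Cldn11 had 7.66, 15.1 and 15.7 CPM in Sham_herb against 33.3, 20 and 37.1 CPM in Sham_solvent, and the gap junction gene Gjb6 1.04, 1.40 and 0.491 CPM in Sham_herb against 6.62, 1.93 and 1.32 CPM in Sham_solvent. Sham_solvent replicate 1 was the highest library in 3 of them. The summed level of the list was 290 to 353 CPM in Sham_herb against 443 to 1280 CPM in Sham_solvent. Its median was -0.55 without Sham_solvent replicate 1, -0.48 without Sham_herb replicate 1 and -0.45 with the gene length covariate, under which 2 members had an unadjusted p under 0.05. That count was 5 without Sham_herb replicate 1, without Sham_herb replicate 3 and without Sham_solvent replicate 1. In whole ganglia, fewer cells of a type and less RNA per cell cannot be told apart, and the share of meningeal tissue in each dissected ganglion was not measured.

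Fibroblast and matrix genes lay the same way, with 29 of 34 members lower, a median of -0.36 and 4 members (11.8%, against 5.49% of all genes) lower with an unadjusted p under 0.05. The median was -0.23 and that number 2 without Sham_herb replicate 1, -0.55 and 9 without Sham_herb replicate 2, -0.32 and 2 without Sham_herb replicate 3, and -0.46 and 8 without Sham_solvent replicate 2. In that last fit 4146 of all 17043 genes had such a p in either direction. Clec3b, a plasminogen-binding lectin, had 3.56, 5.62 and 7.03 CPM in Sham_herb against 15.5, 7.74 and 17.5 CPM in Sham_solvent (-1.33 ± 0.40). Dcn, a collagen-binding proteoglycan, had 391, 580 and 427 CPM in Sham_herb against 609, 756 and 657 CPM in Sham_solvent (-0.53 ± 0.22), without overlap. Mgp, an inhibitor of mineral deposition, overlapped, with 69.0, 119 and 87.3 CPM in Sham_herb against 198, 105 and 226 CPM in Sham_solvent. Collagen genes as such had 24 of 43 members lower with a median of -0.06, and 0 of them had an unadjusted p under 0.05 with edgeR.

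Immediate early genes, the first that a stimulus turns on, were lower in 23 of 32 members with a median of -0.33. The flow-responsive factor Klf2 had 1.16, 1.59 and 1.37 CPM in Sham_herb against 4.47, 1.73 and 3.07 CPM in Sham_solvent, and Gadd45g, a growth arrest gene, 7.02, 6.45 and 7.13 CPM in Sham_herb against 13.8, 7.68 and 11.9 CPM in Sham_solvent. The orphan receptor Nr4a2 was higher, with 10.6, 12.8 and 9.55 CPM in Sham_herb against 6.95, 9.12 and 7.09 CPM in Sham_solvent. Fos, the standard activity marker, overlapped, with 2.08, 2.28 and 2.75 CPM in Sham_herb against 2.28, 4.05 and 3.55 CPM in Sham_solvent. Without Sham_solvent replicate 1 the median of the list was -0.20. With the gene length covariate it was -0.07 and no member had an unadjusted p under 0.05 with edgeR.

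**Figure D2:**
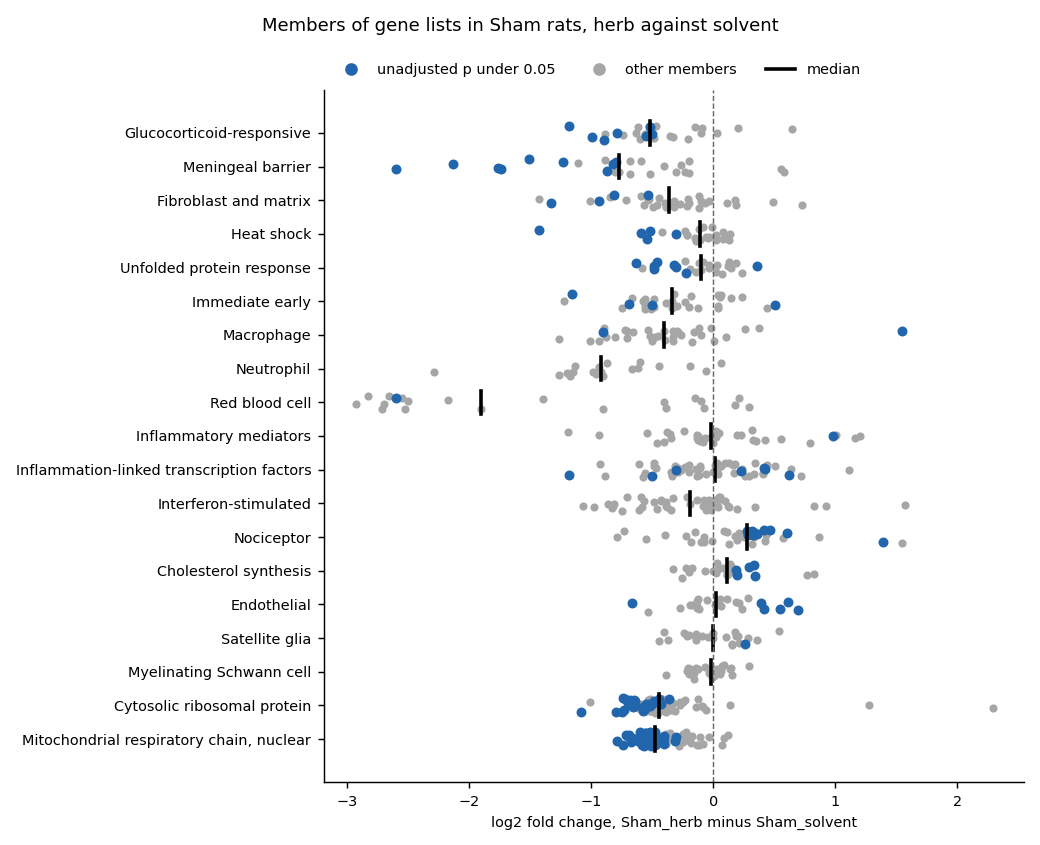
Log2 fold change, Sham_herb minus Sham_solvent, of each tested member of 19 gene lists, with the list's median as a black bar and members of unadjusted p under 0.05 in blue. The glucocorticoid and meningeal lists lie left of 0 with medians of -0.52 and -0.77, the nociceptor list lies right of it with 0.28, and satellite glia and myelinating Schwann cell lists straddle it.

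No immune gene of the lists passed the adjusted test. Macrophage genes were lower in 30 of 35 members (85.7%) with a median of -0.41. Only 1 member was lower and 1 higher with an unadjusted p under 0.05. These are mostly short genes, with a median length of 1980 bases. Of all genes with a length of up to 2284 bases, 81.3% were lower, with a median of -0.23. With the gene length covariate 28 of 35 macrophage members were lower, with a median of -0.37, and 0 had an unadjusted p under 0.05. The median was -0.22 with 25 lower without Sham_herb replicate 1, and -0.74 with 32 lower without Sham_herb replicate 2. Csf1r, the growth factor receptor of macrophages, had 12.5, 24.2 and 19.1 CPM in Sham_herb against 21.2, 26.8 and 21.8 CPM in Sham_solvent, and the signalling adaptor Tyrobp 4.54, 9.98 and 6.38 CPM in Sham_herb against 13, 11.4 and 13.9 CPM in Sham_solvent. The fractalkine receptor Cx3cr1 ran the other way, with 0.954, 1.40 and 0.981 CPM in Sham_herb against 0.325, 0.511 and 0.270 CPM in Sham_solvent (1.54 ± 0.70). Its ligand Cx3cl1, which neurons and endothelium present, had 7.11, 7.78 and 5.13 CPM in Sham_herb against 3.74, 4.03 and 2.33 CPM in Sham_solvent (0.98, unadjusted p = 0.00492, edgeR). Receptor and ligand were thus both higher in every Sham_herb library than in any Sham_solvent library, as were 8.52% of all genes. Cx3cr1 was under 1 CPM in every Sham library except Sham_herb replicate 2.

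Blood cell genes followed single libraries. Neutrophil genes were lower in 18 of 19 members with a median of -0.92, and S100a8 had 11.2, 35 and 20 CPM in Sham_herb against 37.0, 31.2 and 58.0 CPM in Sham_solvent. Without Sham_herb replicate 2 the neutrophil median was -1.48. The neutrophil list also holds mostly short genes, with a median length of 1094 bases. Of all genes with a length of up to 2284 bases, 81.3% were lower. With the gene length covariate 17 of 19 neutrophil members were lower, with a median of -0.69. Red blood cell genes had a median of -1.90, which was -0.20 without Sham_solvent replicate 3. The alpha globin Hba-a1, whose reads may be shared with its copies, had 15.8, 25.2 and 18.2 CPM in Sham_herb against 49.6, 9.51 and 313 CPM in Sham_solvent. The blood content of Sham_solvent replicate 3 thereby stood apart, and its part in the other differences was not tested beyond leaving that library out.

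Interferon-stimulated genes split both groups. Isg15, a ubiquitin-like antiviral protein, had 33.4, 22 and 4.84 CPM in Sham_herb against 21.3, 86.9 and 9.39 CPM in Sham_solvent, and the interferon regulator Irf7 59.9, 32.4 and 8.60 CPM in Sham_herb against 15.6, 124 and 13.1 CPM in Sham_solvent. The list's median was -0.19 with 31 of 45 members lower, but 0.77 with 43 of 45 higher without Sham_solvent replicate 2. No member had an unadjusted p under 0.05 with edgeR in either fit. Inflammatory mediators had 16 members higher and 18 lower of 34, with a median of -0.02. The cytokine genes Il1b and Tnf were near the detection limit, with 1.30, 1.44 and 0.621 CPM in Sham_herb against 0.203, 1.06 and 1.38 CPM in Sham_solvent for Il1b, and at most 0.318 CPM in any Sham library for Tnf. The chemokine Ccl2 had 17.4, 13.8 and 15.2 CPM in Sham_herb against 16.1, 8.72 and 21.8 CPM in Sham_solvent, a difference of 0.00. Il6 and Ptgs2 did not pass the filter on low counts.

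The study asked for transcription factors. Of 59 inflammation-linked factors tested, 31 were higher and 28 lower, with a median of 0.01, and an unadjusted p under 0.05 was found in 4 higher (6.78%) and 3 lower (5.08%) ones, close to the 4.4% and 5.49% of all genes. Beside Runx1 and Cebpb, given above, Ets1, a factor of endothelium and lymphocytes, had 15.1, 18.2 and 16.7 CPM in Sham_herb against 8.82, 11.5 and 12.1 CPM in Sham_solvent (0.62 ± 0.20). Irf3, which relays nucleic acid sensing, had 38.7, 29.7 and 36.2 CPM in Sham_herb against 44.8, 46.8 and 37.6 CPM in Sham_solvent. Stat3, the mediator of interleukin 6 signals, had 221, 209 and 214 CPM in Sham_herb against 157, 200 and 192 CPM in Sham_solvent (0.23, unadjusted p = 0.0405, edgeR; 0.13 without Sham_solvent replicate 1). The nerve injury factor Atf3 had 11.6, 10.7 and 54.5 CPM in Sham_herb against 13, 14.4 and 29.4 CPM in Sham_solvent. Its log2 fold change of 0.44 came from Sham_herb replicate 3 and was -0.76 without it.

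Nociceptor genes, those of the neurons that sense harm, were higher in 28 of 39 members (71.8%, against 50.7% of all genes) with a median of 0.28. An unadjusted p under 0.05 was found in 9 higher members (23.1%, where 4.4% of all genes were higher with such a p) and in 0 lower ones. In 14 members (35.9%, against 8.52% of all genes) all Sham_herb libraries lay above all Sham_solvent libraries. In 3 members (7.69%, against 6.06% of all genes) all lay below. Mrgprb4, of a receptor family of sensory neurons, had 47.1, 41.4 and 37.8 CPM in Sham_herb against 34.5, 32.0 and 28.2 CPM in Sham_solvent (0.42 ± 0.14). The prostaglandin E2 receptor Ptger3 had 29.8, 33.1 and 29.0 CPM in Sham_herb against 24.7, 26.6 and 20.4 CPM in Sham_solvent, and the ATP-gated channel P2rx3 433, 450 and 466 CPM in Sham_herb against 348, 392 and 342 CPM in Sham_solvent. Prdm12, a regulator required for nociceptor development, had 31.2, 34.7 and 36.0 CPM in Sham_herb against 13.2, 31.3 and 22.3 CPM in Sham_solvent and just overlapped. With the gene length covariate the median was 0.08, with 22 of 39 members higher and 4 of them with an unadjusted p under 0.05. The count of higher members with such a p was 4, 4 and 5 without Sham_herb replicates 1, 2 and 3 in turn, and 4, 14 and 3 without Sham_solvent replicates 1, 2 and 3 in turn. Without Sham_solvent replicate 2, 4146 of all 17043 genes had such a p in either direction.

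The lists of other neurons and glia had medians near 0. Large-diameter neuron genes had 17 higher and 13 lower members of 30 (median 0.02), although Pvalb, the calcium buffer of proprioceptors, had 244, 237 and 195 CPM in Sham_herb against 500, 258 and 320 CPM in Sham_solvent, and the axonal adhesion gene Cntnap2 194, 196 and 183 CPM in Sham_herb against 143, 172 and 154 CPM in Sham_solvent. Pan-neuronal genes had a median of 0.06 over 28 members. Among them the vesicle calcium sensor Syt1 had 213, 216 and 201 CPM in Sham_herb against 165, 159 and 167 CPM in Sham_solvent (0.36, unadjusted p = 0.012, edgeR). Satellite glia genes were split evenly, 12 higher and 12 lower, with an unadjusted p under 0.05 in 1 higher and 0 lower members with edgeR. In 5 of them (20.8%, against 6.06% of all genes) all Sham_herb libraries lay below all Sham_solvent libraries. In 3 (12.5%, against 8.52% of all genes) all lay above. Myelinating Schwann cell genes were 12 higher and 14 lower of 26 with a median of -0.01.

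Cholesterol synthesis genes were slightly higher in 18 of 25 members, with a median of 0.12 and 5 higher members (20%, against 4.4% of all genes) of unadjusted p under 0.05, a number that was 2 without Sham_herb replicate 1 and 3 without Sham_solvent replicate 3. The sterol desaturase Sc5d had 178, 190 and 183 CPM in Sham_herb against 130, 158 and 150 CPM in Sham_solvent (0.33 ± 0.10), and Hsd17b7, another late step of the pathway, 29.3, 27.7 and 30.1 CPM in Sham_herb against 22.5, 23.0 and 23.4 CPM in Sham_solvent. Insig1, a sterol-sensing protein that restrains the pathway, had 209, 203 and 206 CPM in Sham_herb against 175, 186 and 179 CPM in Sham_solvent. The groups did not overlap in any of these 3 genes. With the gene length covariate 24 of 25 members were higher with a median of 0.16. Without Sham_solvent replicate 2 the median was 0.05, with an unadjusted p under 0.05 in 6 higher and 5 lower members. In that fit 4146 of all 17043 genes had such a p in either direction.

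Vessel genes were uneven. Of 25 endothelial genes 14 were higher, 5 of them with an unadjusted p under 0.05 (20%, against 4.4% of all genes), and 1 was lower with such a p. Without Sham_herb replicate 2, 11 were higher and 14 lower, with such a p in 1 higher member; that number was 3 without Sham_solvent replicate 1 and 3 with the gene length covariate. The VEGF receptor Kdr had 23.8, 21.7 and 20.5 CPM in Sham_herb against 15.0, 15.8 and 12.6 CPM in Sham_solvent (0.61 ± 0.18), and the surface lectin Cd93 13.2, 18.2 and 15.1 CPM in Sham_herb against 9.63, 11.1 and 7.97 CPM in Sham_solvent. Ramp2, the short partner of the adrenomedullin receptor, ran opposite, with 38.1, 32.5 and 33.4 CPM in Sham_herb against 70.9, 38.9 and 56.0 CPM in Sham_solvent (-0.67 ± 0.21). Mural and smooth muscle genes were split, with 10 higher and 12 lower of 22, a median of -0.05 and a range down to -1.54. An unadjusted p under 0.05 was found in 3 higher members (13.6%, against 4.4% of all genes) and 1 lower one (4.55%, against 5.49%). Among the higher ones, the adhesion molecule Mcam had 277, 271 and 299 CPM in Sham_herb against 191, 255 and 222 CPM in Sham_solvent. In the list of NRF2 and AhR targets, the genes through which cells answer electrophiles and plant compounds, 17 of 32 were higher with a median of 0.01. Heme oxygenase Hmox1 had 10.5, 9.52 and 10.3 CPM in Sham_herb against 12.3, 14.5 and 21.0 CPM in Sham_solvent (-0.65 ± 0.20, and -0.40 without Sham_solvent replicate 3), and the ferritin Ftl1 372, 339 and 351 CPM in Sham_herb against 585, 373 and 513 CPM in Sham_solvent. Cyp1b1, a target of the dioxin receptor, overlapped, with 17.6, 19.1 and 20.8 CPM in Sham_herb against 19.4, 27.2 and 27.2 CPM in Sham_solvent.

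The most uniform difference was in short genes of ribosomes and respiration. Of 77 nuclear genes of the respiratory chain 74 were lower, with a median of -0.47. In 50 (64.9%, against 5.49% of all genes) the value was lower with an unadjusted p under 0.05. Of 91 cytosolic ribosomal protein genes 88 were lower, with a median of -0.45 and 25 (27.5%, against the same 5.49%) lower with such a p. Cox7a2, a subunit of cytochrome oxidase, had 158, 142 and 152 CPM in Sham_herb against 295, 160 and 232 CPM in Sham_solvent, and Uqcrh of complex III 246, 241 and 235 CPM in Sham_herb against 455, 235 and 361 CPM in Sham_solvent. The ribosomal gene Rpl41 had 373, 357 and 378 CPM in Sham_herb against 876, 389 and 586 CPM in Sham_solvent, and Rpl30 178, 136 and 168 CPM in Sham_herb against 341, 222 and 243 CPM in Sham_solvent. Sham_solvent replicate 1 was the highest library in all 4 genes, and Sham_solvent replicate 2, the lowest of its group, was close to Sham_herb in Cox7a2, Uqcrh and Rpl41. The groups did not overlap and Sham_herb lay below in 1 of the 77 (1.3%) and 3 of the 91 genes (3.3%), under the 6.06% of all genes. Of the respiratory genes, 0 were lower with an unadjusted p under 0.05 without Sham_solvent replicate 1, 68 without Sham_solvent replicate 2 and 27 without Sham_solvent replicate 3, and 12 and 19 without Sham_herb replicates 2 and 3. Of the ribosomal genes, 0, 75 and 14 were lower with such a p without Sham_solvent replicates 1, 2 and 3 in turn, and 5, 8 and 5 without Sham_herb replicates 1, 2 and 3 in turn. Over all 17043 genes, such a p in either direction was found in 505, 4146 and 1008 without Sham_solvent replicates 1, 2 and 3. Without Sham_herb replicates 1, 2 and 3 it was found in 1318, 871 and 1070.

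Gene length moved with this difference. The slope of a library's log2 CPM on log2 gene length, after removal of each gene's mean, was 0.052, 0.079 and 0.054 in Sham_herb against -0.145, 0.074 and -0.082 in Sham_solvent. When genes with a length were cut into 4 bins of equal number, in the bin of shortest genes (up to 2284 bases) the median log2 fold change was -0.23 with 81.3% of genes lower, and in the bin of longest genes (above 6428 bases) it was 0.14 with 23.4% lower. In the shortest bin 614 of 3693 genes were lower with an unadjusted p under 0.05. The herb effect in NPP rats had medians between -0.02 and 0.01 over the same bins. With the slope as a covariate, 440 genes had an unadjusted p under 0.05, the ribosomal median was 0.07 with 77 of 91 members higher, and the respiratory median was 0.01 with 41 of 77 higher. No member of either list then had an unadjusted p under 0.05 with edgeR. The slope was computed from these same counts, short genes included, so smaller differences in short-gene lists are built into that fit. Without Sham_solvent replicate 2, 485 of all 17043 genes were called. They included 338 of the 3693 genes in the shortest bin and 40 of the 77 respiratory chain genes.

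**Figure D3:**
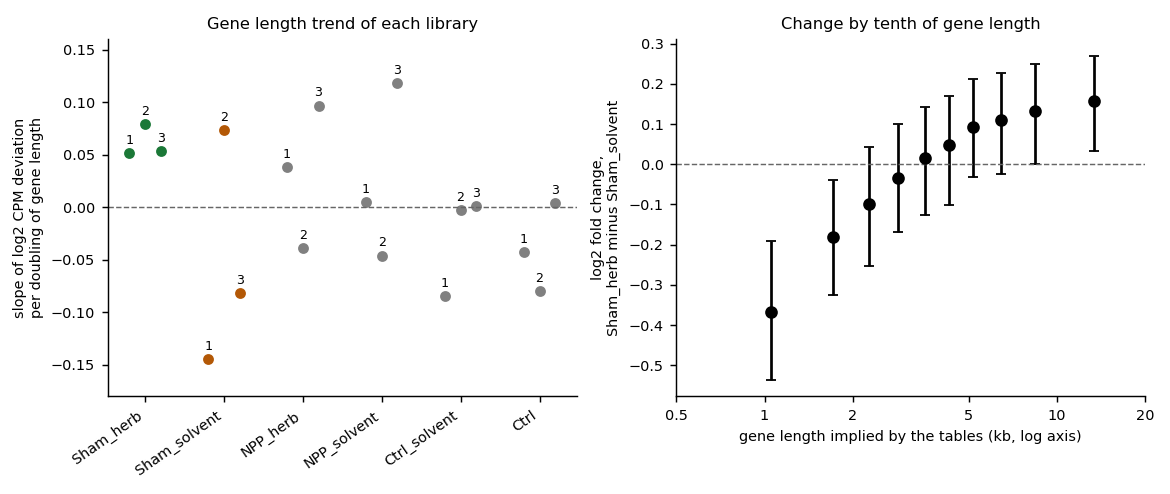
Left, slope of each library's log2 CPM deviation per doubling of gene length in the 6 groups, with replicate numbers; right, median log2 fold change (Sham_herb minus Sham_solvent) with the middle 50% of genes as bars, in 10 bins of gene length in kilobases on a log axis. Sham_solvent replicates 1 and 3 lie at -0.145 and -0.082 while the Sham_herb libraries lie at 0.052 to 0.079, and the median change climbs with length.

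Whether the herb acted differently in sham and in pain-model rats was tested by the difference of both herb effects, which share no library. EdgeR called 0 of 17043 genes (0%), with a smallest adjusted p of 0.83, and 580 genes (3.4%) had an unadjusted p under 0.05, with an effect higher in Sham than in NPP in 258 (1.51%) and lower in 322 (1.89%). DESeq2 called 3 genes and found an unadjusted p under 0.05 in 670. Meningeal barrier genes, lower in Sham rats given the herb (median -0.77), were higher in NPP rats given the herb (median 0.66), and 23 of the 25 members had a difference below 0, against 47.7% of all genes. In 15 of the 25 such a difference had an unadjusted p under 0.05, against 1.89% of all genes. The list summed to 1280, 443 and 523 CPM in Sham_solvent and to 397, 293 and 192 CPM in NPP_solvent. It summed to 290 to 353 CPM in Sham_herb, 400 to 612 CPM in NPP_herb and 369 to 561 CPM in Ctrl. List counts of the difference were not repeated with a library left out or with the gene length covariate. Members of a list can vary together, so their number is no count of independent results. Fibroblast and matrix medians were -0.36 in Sham and 0.15 in NPP. Neutrophil medians were -0.92 in Sham and 1.06 in NPP, and red blood cell medians -1.90 in Sham and 2.07 in NPP. The red blood cell list summed to 291, 208 and 1000 CPM in Sham_solvent, against 216 to 250 CPM in Sham_herb. It summed to 315, 363 and 958 CPM in NPP_herb, against 190 to 338 CPM in NPP_solvent. Replicate 3 thus stood far above the others in Sham_solvent and in NPP_herb. Without Sham_solvent replicate 3 the red blood cell median in Sham was -0.20. Glucocorticoid-responsive genes had medians of -0.52 in Sham and -0.10 in NPP. Their difference was below 0 in 23 of 27 members, against 47.7% of all genes, and in 3 of these it had an unadjusted p under 0.05, against 1.89% of all genes. Interferon-stimulated genes lay the other way, with medians of -0.19 in Sham and -1.55 in NPP. Their difference was above 0 in 44 of 45 members, of which 0 had an unadjusted p under 0.05 with edgeR. The difference of nociceptor genes was above 0 in 30 of 39 members, 5 of them with an unadjusted p under 0.05, against 1.51% of all genes.

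Gjb2 had the smallest p among named genes for a difference below 0. Beside the Sham values given above it had 4.41, 4.13 and 3.68 CPM in NPP_herb against 2.43, 1.73 and 1.39 CPM in NPP_solvent, so that the herb group was the lower one in Sham and the higher one in NPP (difference -1.94 ± 0.39, adjusted p = 0.862 with edgeR, 0.0104 with DESeq2). Slc22a8 had 0.967, 0.223 and 0.885 CPM in NPP_herb against 0.262, 0.104 and 0.190 CPM in NPP_solvent (difference -4.50 ± 1.01). Fbln1 had 14.0, 9.37 and 14.4 CPM in NPP_herb against 11.6, 9.19 and 8.70 CPM in NPP_solvent (difference -1.18 ± 0.28). C1qtnf7, of the C1q and TNF-related family, had 0.578, 0.759 and 0.818 CPM in Sham_herb against 0.975, 1.02 and 1.11 CPM in Sham_solvent, and 1.56, 1.12 and 0.942 CPM in NPP_herb against 0.411, 0.312 and 0.381 CPM in NPP_solvent. Rn45s, the ribosomal RNA precursor, whose reads come from many copies, had 809, 877 and 696 CPM in Sham_herb against 1980, 1130 and 732 CPM in Sham_solvent, and 1410, 2540 and 4080 CPM in NPP_herb against 870, 938 and 1090 CPM in NPP_solvent.

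**Figure D4:**
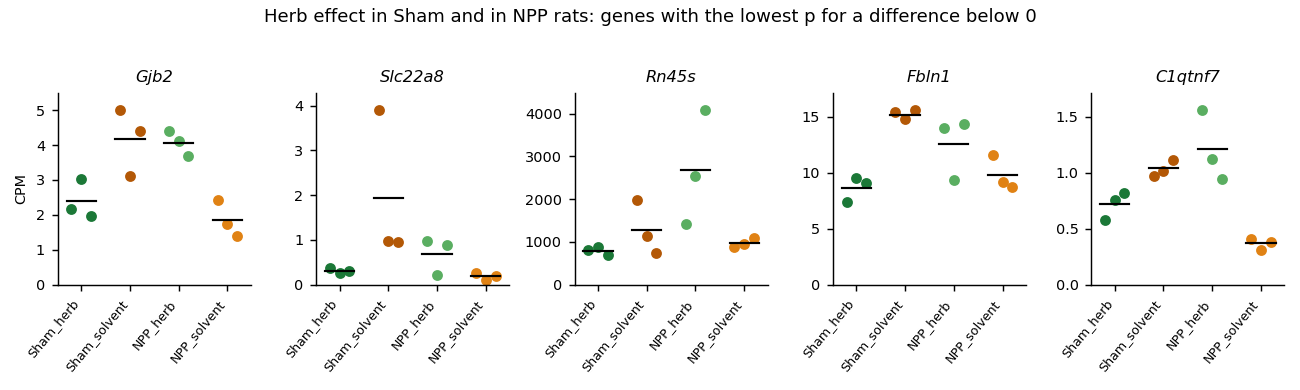
CPM by library of the 5 named genes with the smallest p for a herb effect lower in Sham than in NPP; points are replicates 1 to 3 and bars are group means. In Gjb2 the Sham_herb mean of 2.39 CPM lies below the Sham_solvent mean of 4.16 CPM, while the NPP_herb mean of 4.07 CPM lies above the NPP_solvent mean of 1.85 CPM.

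In the opposite direction, Kcnn1 had 9.62, 7.25 and 9.08 CPM in NPP_herb against 8.68, 8.32 and 12.0 CPM in NPP_solvent, beside its higher values in Sham_herb (difference 0.88 ± 0.25, adjusted p = 0.92, edgeR). The orphan receptor Gpr35 had 21.4, 24.0 and 21.9 CPM in Sham_herb against 15.6, 19.1 and 12.8 CPM in Sham_solvent, and 16, 17.1 and 21.4 CPM in NPP_herb against 24.4, 21.3 and 20.2 CPM in NPP_solvent (difference 0.77 ± 0.23). The membrane-anchored protease Mmp25 had 56.8, 52.5 and 49.2 CPM in Sham_herb against 26.6, 46.6 and 33.3 CPM in Sham_solvent, and 40.7, 42.1 and 48.5 CPM in NPP_herb against 52.5, 50.5 and 48.7 CPM in NPP_solvent (difference 0.78 ± 0.24). The proline transporter gene Slc6a7 (1.53 ± 0.47) and the exchange factor Spata13 (0.47 ± 0.15) had differences of the same sign. In Gpr35 and Mmp25 the herb libraries were the higher ones in Sham, and in NPP the herb mean was the lower one.

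**Figure D5:**
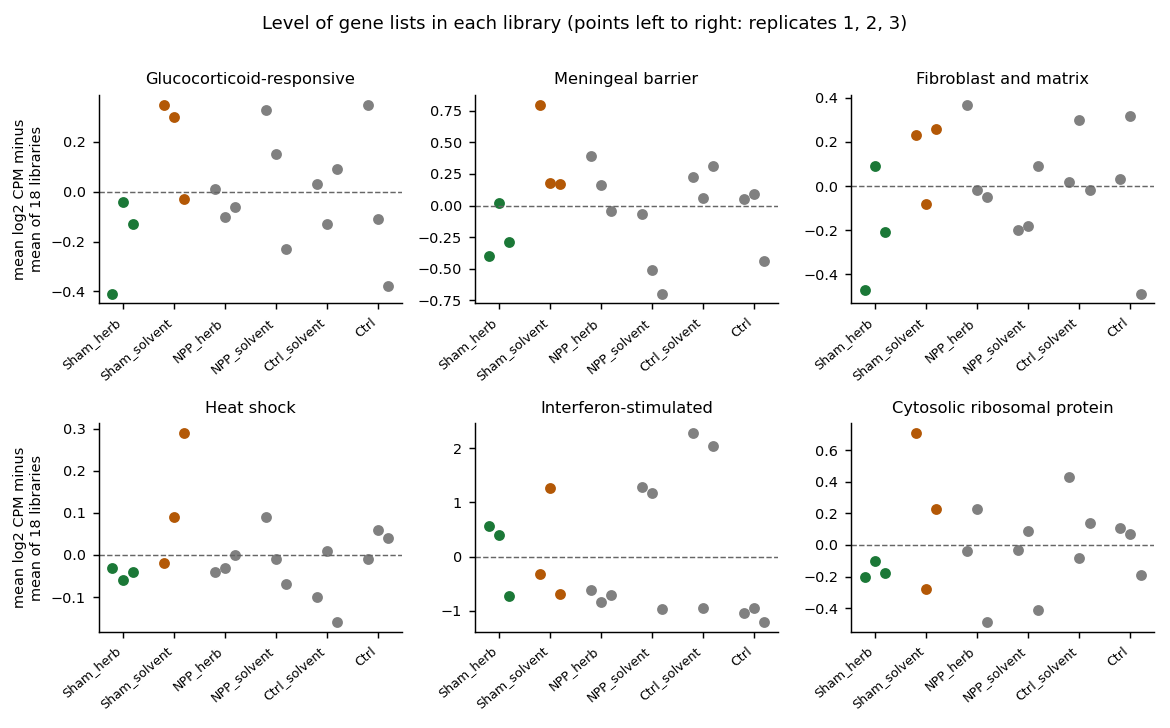
Level of 6 gene lists in each of the 18 libraries, as the average, across members, of each gene's log2 CPM after its 18-library mean is taken off, with Sham_herb in green and Sham_solvent in orange. Meningeal levels run from -0.40 to 0.02 in Sham_herb against 0.17 to 0.80 in Sham_solvent, and from -0.04 to 0.39 in NPP_herb against -0.70 to -0.07 in NPP_solvent.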

How the data were processed

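Messenger RNA was captured on beads from total RNA of dorsal root ganglia, and KAPA stranded libraries were sequenced in pairs on a NovaSeq, per the labels' protocols. HISAT2, DESeq2 and build mRatBN7.2 are named, without versions, in the submitters' processing notes. Which program counted reads, with what strand setting and annotation, is not given in the sources used here. Reads of overlapping, antisense or near-identical genes therefore cannot be told apart. The deposited count table holds raw counts per gene for 25678 genes, which the authors did not normalize. The deposited FPKM table holds values the authors scaled to gene length and library size for 25557 genes. For 146 repeated symbols the entry whose identifier is the bare symbol was taken.

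From the counts, 17043 genes were kept by filterByExpr of edgeR 4.0.16 (R 4.3.3), which dropped 8635 genes (no more than 0.0495% of a library's reads). TMM factors were 0.946 to 1.04. Groups were compared with edgeR's quasi-likelihood F test in 1 model of 6 groups (12 residual degrees of freedom), with Benjamini-Hochberg adjustment over all genes tested and a threshold of 0.05. No 2 replicates agreed within sampling noise. Gene length was taken from the ratio of counts to FPKM for 14769 tested genes, with a median coefficient of variation between libraries of 0.351%. Alternatives used RLE factors, DESeq2 1.42.0, limma 3.58.1 on log2(FPKM + 0.1) and log2(FPKM + 1), no filter, only the libraries compared, a replicate block, a gene length covariate, and each library left out. The gene length covariate was each library's length slope, computed from the same counts that it then adjusts. The covariate combined with leaving out Sham_solvent replicate 1 was added after seeing the data.

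The comparison, the 35 gene lists and the rules were chosen with earlier results of these data known. Lists are described by counts and medians and were not tested. Named genes are up to 10 per direction by smallest unadjusted p among genes with groups that did not overlap, at least 1 CPM in the higher group and a symbol that is no placeholder, since no gene passed the adjusted test; up to 4 of smallest p from each list; a fixed set of stress, inflammation and marker genes; and 5 per direction for the difference between Sham and NPP. The fixed genes Hspa1a and, among markers, Olig2 were not analysed here.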

Additional observations from a re-analysis of the deposited data

How the results depend on the processing

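No gene was called in the Sham comparison in any alternative except without Sham_solvent replicate 2, so that the count ran from 0 to 485 over the fits that left out a library. The number of genes with an unadjusted p under 0.05 ran from 505 to 4146 over those fits, was 440 with the gene length covariate, and was 473 with the covariate and without Sham_solvent replicate 1. For the difference between Sham and NPP, DESeq2 called 3 genes (LOC120102105, Gjb2 and Igf2, at -2.26, -1.97 and -2.20), and the fits that left out a library called 0 to 1, which was Igf2 without NPP_solvent replicate 1. The number with an unadjusted p under 0.05 was 358 with the covariate and ran from 345 (without Sham_solvent replicate 1) to 2304 (without Sham_solvent replicate 2), with 1167 without NPP_herb replicate 3 and 896 without NPP_solvent replicate 2.

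With the replicate number as a block, 0 genes were called and 1727 had an unadjusted p under 0.05 in the Sham comparison. Same-numbered libraries deviated together at r = 0.13, 0.23 and 0.09. Of the differently numbered pairs, Sham_herb replicate 3 and Sham_solvent replicate 1 had 0.11, and the rest ran from -0.21 to -0.02. For each Sham_solvent library, the same-numbered Sham_herb library had the highest r. Deviations were taken from group means, so positive values in some pairs force negative ones in others. No source says what the numbers stand for, so the block is given only as an alternative.

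Of the values of single genes, 1473 kept their direction and side of the threshold, 31 passed it in 1 fit, without Sham_solvent replicate 2, and 11 changed sign. The kept direction shows nothing for genes chosen because their groups did not overlap, since leaving out a library cannot turn it. Ccl2 was at -0.01 with RLE factors, -0.02 with DESeq2 and with only the libraries compared, 0 without the filter, and -0.31 (without Sham_solvent replicate 2) to 0.33 over the fits that left out a library. Over the same fits Isg15 ran from -1.56 to 0.37 and Irf7 from -1.33 to 1.21 (both higher only without Sham_solvent replicate 2), Il1b from -0.12 (without Sham_solvent replicate 1) to 0.74, and Atf3 from -0.76 (without Sham_herb replicate 3) to 0.90. Nr3c1 was at -0.04 with the covariate and without Sham_solvent replicate 1. The cause of these changes was not tested. Depth limits genes under about 1 CPM, such as Tnf, for which a difference was not detectable. Slc22a8 and Slc22a6, under 1 CPM in every Sham library except Sham_solvent replicate 1, have the same limit. So do Cx3cr1 and C1qtnf7, which lay close to that level, and the sizes of these changes are uncertain.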
